A study of Mus musculus with 11 samples.

Results

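The enzymes that place and remove methyl groups on DNA were followed through the liver RNA of mice treated with A2M or with PBS. They are 8 of the 24063 genes in the table: the DNA methyltransferases Dnmt1, Dnmt3a and Dnmt3b, their cofactors Uhrf1 and Dnmt3l, and the dioxygenases Tet1, Tet2 and Tet3. The family was selected on the measured A2M against PBS difference, since Dnmt3b was already known to be among the genes called between these groups. The other members were added by function. Differences between the groups are therefore given below as a description, and nothing is supported with them.

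The 11 livers came from Cd1 nu/nu mice, 5 given PBS and 6 given A2M. According to the methods of the study, these were male athymic nude mice that were 8 weeks old when human tumour xenografts were set under the skin, and were older when the livers were taken. Activated human A2M was injected repeatedly into the peritoneum. A2M is a large plasma protease inhibitor that is taken up in liver through the receptor LRP1. All the mice lacked a working Foxn1 gene and therefore most T cells, and all carried a xenograft, so no liver represents a healthy wild-type animal. Which tumour line the livers belong to is not given in the sources used here, and the labels give no time of day, date or batch.

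DNA methylation in mammals is found mainly on cytosines followed by guanine (CpG). The de novo enzymes Dnmt3a and Dnmt3b set the pattern, with the inactive relative Dnmt3l as their cofactor in germ cells and early embryos. After replication Uhrf1 recognises the half-methylated daughter strands and brings in Dnmt1, which copies the mark. The Tet enzymes oxidise methylcytosine with oxygen and 2-oxoglutarate, and the oxidised bases are lost at replication or cut out by repair. Adult hepatocytes divide rarely, and the replication-linked members Uhrf1 and Dnmt1 are known to be higher in dividing cells.

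The start regions of 3 members are printed because the results below turn on Dnmt3b, set it beside its relative Dnmt3a, and follow Uhrf1 with the S phase genes. All are from RefSeq on GRCm38.p6, plus strand, and end before the annotated start. In Dnmt3b (chr2:153649199-153649410) the CpG are in capitals, in the start region of Dnmt3a that lies farthest downstream (chr12:3891494-3891743) the E-box CACGTG is, and in the downstream one of Uhrf1 (chr17:56304063-56304312) the E2F motif is.
Dnmt3b: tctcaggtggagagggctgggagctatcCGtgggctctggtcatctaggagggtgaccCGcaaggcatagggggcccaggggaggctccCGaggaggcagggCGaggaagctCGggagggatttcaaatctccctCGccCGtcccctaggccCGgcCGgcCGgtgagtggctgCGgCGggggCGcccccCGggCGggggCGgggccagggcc
Dnmt3a: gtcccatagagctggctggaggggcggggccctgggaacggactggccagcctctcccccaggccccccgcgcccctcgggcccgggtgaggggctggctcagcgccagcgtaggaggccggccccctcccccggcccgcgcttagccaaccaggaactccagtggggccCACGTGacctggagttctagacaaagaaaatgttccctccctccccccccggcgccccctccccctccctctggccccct
Uhrf1: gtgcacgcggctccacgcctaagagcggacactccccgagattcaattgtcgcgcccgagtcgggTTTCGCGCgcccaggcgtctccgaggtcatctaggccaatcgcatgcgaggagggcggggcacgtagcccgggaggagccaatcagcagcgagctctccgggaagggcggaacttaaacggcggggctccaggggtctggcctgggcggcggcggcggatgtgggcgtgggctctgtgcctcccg

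The Dnmt3b stretch holds 16 CpG in 212 bases. RefSeq gave 15 start regions of 300 bases for the 8 members, each running past its start, and the single one of Dnmt3b held 30 CpG, more than 88.3% of all 32851 start regions. It had 4 GC boxes (GGGCGG on either strand), a motif found in 35.7% of all start regions. The clock motifs E-box (CACGTG), D-box (TTATGTAA) and the half-site AGGTCA were not in this window of Dnmt3b, nor was the E2F motif (TTTGGCGC or TTTCGCGC). An E-box was present in 7.15% of all start regions and a D-box in 0.938%. The half-site AGGTCA was present in 16.3% and the E2F motif in 0.813%. The E2F motif occurred 1 time in the printed Uhrf1 region and 2 times in a start region of Dnmt1, the maintenance enzyme. Such matches are letters in a window and do not show binding.

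Libraries of PBS livers held 31513210 to 46381692 counted reads, and those of A2M livers 23545121 to 37357134. Markers fixed by list gave summed RPKM (counted reads scaled for exon length and library total) of 41200 to 66800 for hepatocytes in the PBS livers and 49700 to 60400 in the A2M livers. In PBS replicate 2 the markers of adrenal cortex summed to 366 and those of adipocytes to 903, against 2.26 to 12.5 and 3.45 to 19.3 in the other livers. Cholangiocyte markers summed to 152, 29.7, 13.2, 36.9 and 45.6 in PBS replicates 1 to 5 and to 16.8 to 27.2 in A2M livers, with all PBS livers but replicate 3 above every A2M liver. In A2M replicate 1 the Kupffer cell markers reached 134 and the lymphocyte markers 6.25. In bulk RNA, fewer cells of a type and less RNA per cell cannot be told apart. Nothing in the labels says more of the replicates than that they are separate livers.

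Of the 8 members, 6 passed the low-count filter, and Dnmt3l and Tet1 did not. Dnmt3b was the 1 member called, lower in A2M livers, where a call is an adjusted p below 0.01 by the quasi-likelihood test of edgeR. Over all 12581 genes tested, 27 were called, 10 higher and 17 lower, or 0.215%. Scaling by library totals gave 5 higher and 15 lower. Since the family was chosen by this contrast, nothing is read from its count. At the threshold itself, the last gene inside was Cyp4a32, with a log2 fold change of 1.02 and an adjusted p of 0.0096 in edgeR, and the first outside was Arntl, with -3.18 and 0.0108.

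**Figure D1:**
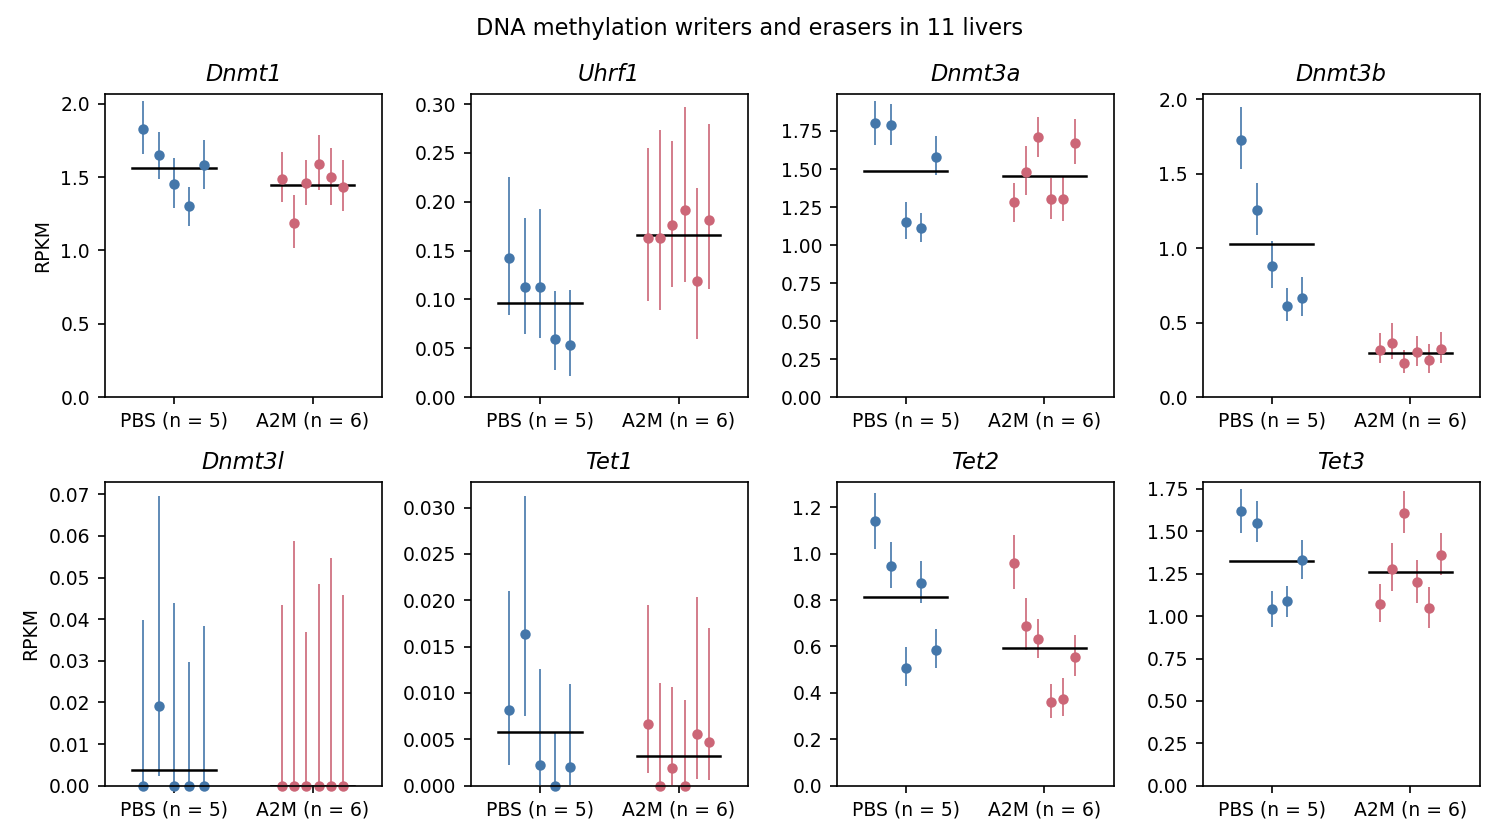
RPKM of each member in each of the 11 livers, PBS in blue and A2M in red. Points are single livers with 95% Poisson intervals for counting error only, black lines are group means, and each panel has its own axis from 0. Dnmt3b has no overlap between its groups, with 0.613 as the lowest PBS value and 0.363 as the highest A2M value.

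Dnmt1, the maintenance methyltransferase (chromosome 9, 20907206 to 20959888, minus strand), was steady across the livers. Its RPKM in PBS replicates 1 to 5 was 1.83, 1.65, 1.45, 1.3 and 1.58. In A2M replicates 1 to 6 it was 1.49, 1.19, 1.46, 1.59, 1.5 and 1.43. The groups overlapped over most of their range, and Dnmt1 had the smallest coefficient of variation of the 6 tested members in both groups, 12.9% and 9.32%. The means were 1.56 ± 0.202 (SD, n = 5) and 1.44 ± 0.135 (SD, n = 6). The fitted log2 fold change was -0.092 with a 95% interval from -0.31 to 0.12, so that a decrease beyond 1.24-fold lay outside it.

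Uhrf1, the reader of half-methylated CpG that recruits Dnmt1 (chromosome 17, 56303337 to 56323486, plus strand), was scarce, with 172 reads over all libraries. In the PBS livers its RPKM was 0.142, 0.113, 0.113, 0.0591 and 0.0532, from 18, 16, 13, 10 and 7 reads. In the A2M livers it was 0.163, 0.163, 0.176, 0.192, 0.119 and 0.181, from 19, 14, 24, 20, 11 and 20 reads. A2M livers were mostly higher, but A2M replicate 5 lay below PBS replicate 1, so the groups overlapped. The means were 0.096 ± 0.0385 (SD, n = 5) and 0.166 ± 0.0254 (SD, n = 6), and the fitted log2 fold change was 0.82 (SE 0.29, interval 0.2 to 1.45). It did not pass the threshold (adjusted p = 0.198 in edgeR), and the adjusted p stayed between 0.195 and 0.334 with any 1 liver left out. With so few reads, the counting interval of a single liver was wide: 0.0214 to 0.11 RPKM in PBS replicate 5 and 0.0596 to 0.214 in A2M replicate 5.

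Markers of dividing cells were set beside these values. The 5 proliferation markers summed to 0.589 to 1.66 RPKM in PBS livers and 0.849 to 1.73 in A2M livers, and the 20 S phase genes to 31.1 to 36.0 and 30.0 to 38.9. Both sums overlapped between the groups. Their part in the Uhrf1 values was not tested.

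Of the de novo methyltransferases Dnmt3b was called and Dnmt3a was not, and the difference between their changes was not tested. Dnmt3a (chromosome 12, 3801559 to 3914443, plus strand) had an RPKM of 1.8, 1.79, 1.15, 1.11 and 1.58 in the PBS livers. In the A2M livers it was 1.28, 1.48, 1.71, 1.3, 1.3 and 1.67. All A2M values lay within the PBS range, and the means were 1.49 ± 0.335 (SD, n = 5) and 1.46 ± 0.196 (SD, n = 6). The log2 fold change of Dnmt3a was -0.0031, with an interval from -0.28 to 0.28 and a sign that turned with the setting: it was 0.0025 with RLE size factors, 0.0073 in DESeq2, and between -0.068 and 0.057 with any 1 liver left out. Its exons share 133 bases with the opposite-strand gene Dnmt3aos, and these unstranded reads cannot separate them there.

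Dnmt3b (chromosome 2, 153649411 to 153687730, plus strand) is the other de novo enzyme, and in humans mutations in it cause the ICF immunodeficiency syndrome. Its RPKM in PBS replicates 1 to 5 was 1.73, 1.26, 0.88, 0.613 and 0.667, from 259, 212, 120, 123 and 104 reads. In A2M replicates 1 to 6 it was 0.319, 0.363, 0.229, 0.3, 0.247 and 0.322, from 44, 37, 37, 37, 27 and 42 reads. Every A2M liver lay below every PBS liver, and the PBS livers were spread 2.82-fold from lowest to highest against 1.59-fold in the A2M livers. Among all genes tested, 2.27% had groups that did not overlap in RPM (reads scaled for library total), and Dnmt3b was the only member among them. The lowest PBS liver, replicate 4, had a counting interval of 0.509 to 0.731 RPKM, and the highest A2M liver, replicate 2, one of 0.256 to 0.501.

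The means of Dnmt3b were 1.03 ± 0.466 (SD, n = 5) in PBS and 0.297 ± 0.0502 (SD, n = 6) in A2M. The fitted log2 fold change was -1.75 (SE 0.255), which is 3.37-fold lower with a 95% interval from 2.3 to 4.94-fold. The adjusted p was 0.00676 in edgeR, the rank by p being 21 of 12581. DESeq2, which called 2.3% of the genes to which it gave an adjusted p, called Dnmt3b too (adjusted p = 8.72e-08). The direction was the same with each liver left out, from -1.87 to -1.50, but the adjusted p was below 0.01 in only 2 of these 11 fits, those without PBS replicate 4 or 5, and reached 0.0262 in the highest. Without PBS replicate 1, the liver with most Dnmt3b and most cholangiocyte marker RNA, the log2 fold change was -1.50 (adjusted p = 0.0175, edgeR). Without PBS replicate 2, the liver with adrenal and adipocyte RNA, it was -1.71 (adjusted p = 0.0209, edgeR). Cholangiocyte marker sums, which rest mainly on Spp1, had a median of 36.9 in PBS and 18.3 in A2M livers. By median they were lower in the same group as Dnmt3b. PBS replicate 3 had the lowest cholangiocyte sum of all 11 livers (13.2), with Dnmt3b at 0.88 RPKM. The part of these cells in the result was not tested.

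**Figure D2:**
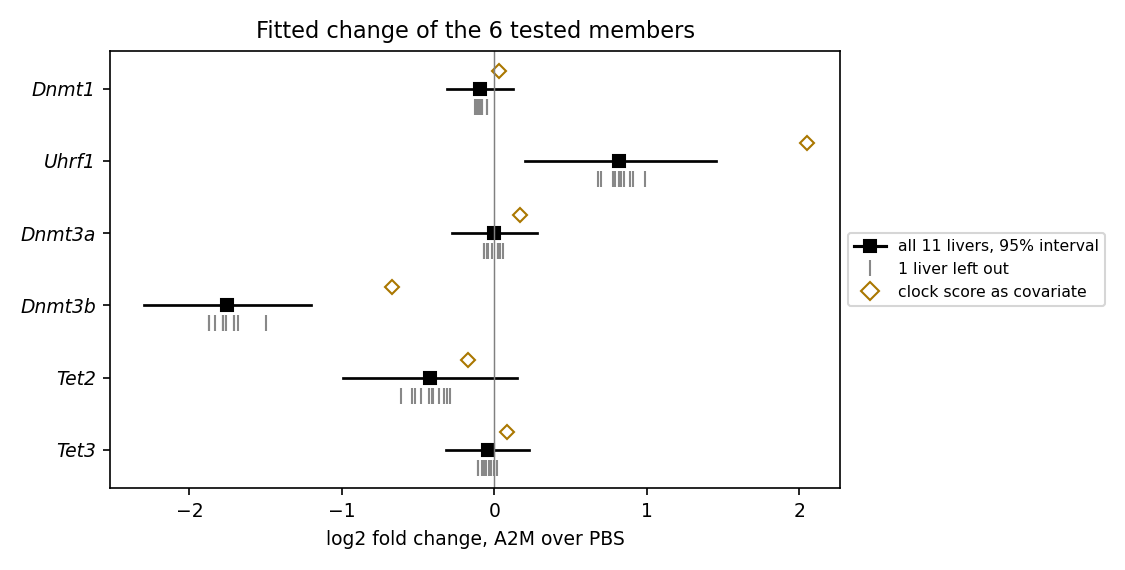
Fitted log2 fold change, A2M over PBS, of the 6 tested members. Squares with lines are the fit on 11 livers with its 95% interval, grey ticks the fits with 1 liver left out, and open diamonds the fit with the clock score as a covariate. The interval of Dnmt3b runs from -2.3 to -1.2 and that of Uhrf1 from 0.2 to 1.45, and the other 4 include 0.

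The balance of the de novo pair was taken within each liver. In PBS replicates 1 to 5 the RPKM of Dnmt3a was 1.04, 1.43, 1.31, 1.82 and 2.38 times that of Dnmt3b. In A2M replicates 1 to 6 it was 3.99, 4.08, 7.45, 4.34, 5.25 and 5.21 times. Dnmt3a was the higher of the pair in all 11 livers, near parity in PBS replicate 1. The ratios did not overlap between the groups, as the Dnmt3b values themselves did not, and they are no independent measure of them.

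Clock gene sums, like Dnmt3b, differed between the groups without overlap. In neither group was the order of the dawn sums that of Dnmt3b. Genes that in mouse liver peak towards dawn (Arntl, Npas2, Clock, Nfil3 and Cry1) summed to 52.8, 37.5, 50.2, 26.3 and 23.8 RPKM in PBS replicates 1 to 5. The dawn genes summed to 13.2, 9.29, 14.2, 9.03, 15.2 and 16.0 in A2M replicates 1 to 6. Of these livers replicate 2 had the most Dnmt3b (0.363 RPKM) and replicate 3 the least (0.229), while replicate 6, with the highest dawn sum, had 0.322. The counting intervals of replicates 2 and 3, 0.256 to 0.501 and 0.161 to 0.316 RPKM, overlapped. The order of the A2M livers by Dnmt3b is therefore not resolved, and nothing is read from it. The 13 genes of the dusk list, among them Dbp and Per2, summed to 46.0 to 106 in PBS livers and to 156 to 187 in A2M livers. PBS replicates 1, 2 and 3, with the most Dnmt3b, had the highest dawn sums and the lowest dusk sums of all the livers, and neither sum overlapped between the groups. Of these 3 livers, replicate 3 had less Dnmt3b than replicate 2 (0.88 against 1.26 RPKM) but a higher dawn sum.

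In the fit over all genes, the 13 dusk genes all had positive log2 fold changes with a median of 1.74, and 1 was called (Wee1, a cell cycle kinase). The 5 dawn genes were all negative with a median of -1.76, and 1 was called (Npas2, a partner of Arntl), beside a median of -0.01 over all genes. DESeq2 called 8 dusk and 3 dawn genes, beside 284 of the 12368 genes to which it gave an adjusted p (2.3%). At an adjusted p under 0.05 edgeR called 6 and 3, beside 154 of all 12581 genes tested. With each liver's clock score as a covariate, the log2 fold change was -0.67 (SE 0.48) for Dnmt3b and 2.05 (SE 0.599) for Uhrf1. No gene was called in edgeR. At an unadjusted p under 0.05, 208 of 12581 genes were higher and 169 lower, against 803 and 1047 without the covariate. These counts are not read as changes that remain. Because clock gene levels differed between the groups without overlap, treatment and clock phase cannot be told apart in these livers.

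**Figure D3:**
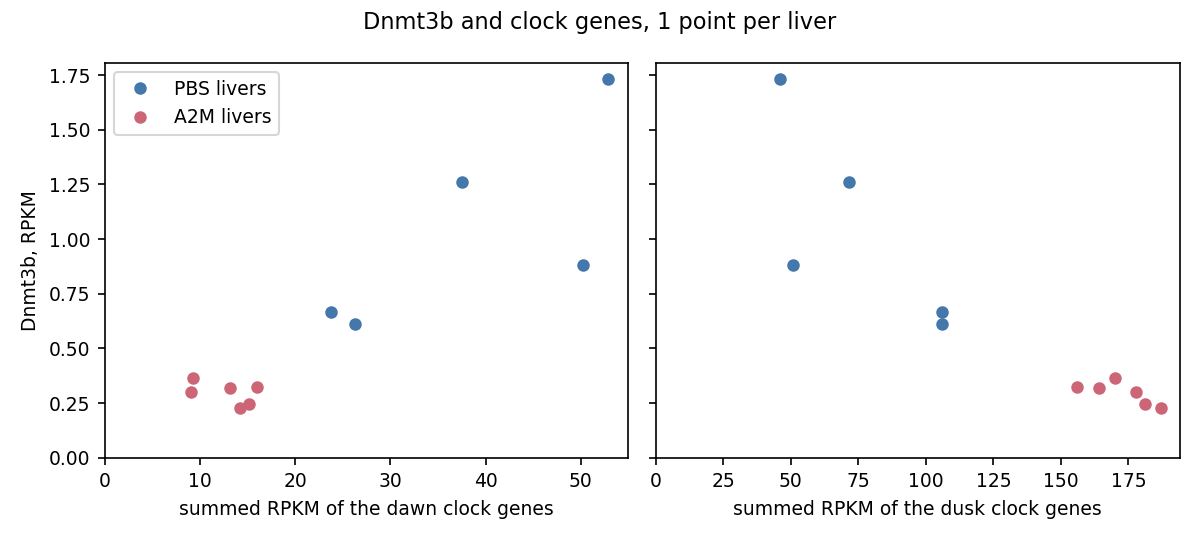
RPKM of Dnmt3b against the summed RPKM of the dawn clock genes (left) and of the dusk clock genes (right), 1 point per liver, PBS in blue and A2M in red. The A2M livers lie at dawn sums of 9.03 to 16.0 and dusk sums of 156 to 187, apart from the PBS livers on both axes.

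Dnmt3l, the cofactor without enzyme activity (chromosome 10, 78042287 to 78063622, plus strand), had 2 reads in all, both in PBS replicate 2. That is 0.0192 RPKM, within a counting interval of 0.00233 to 0.0695. The other livers had 0 reads, which allows up to 0.0242 RPKM (3 reads) in the deepest library and up to 0.0477 in the shallowest. Dnmt3l shares 67 exon bases with Aire on the opposite strand.

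Of the dioxygenases, Tet1 (chromosome 10, 62804570 to 62887469, minus strand), known from embryonic stem and germ cells, was barely detected. It had 4, 9, 1, 0 and 1 reads in the PBS livers and 3, 0, 1, 0, 2 and 2 in the A2M livers. PBS replicate 2, the liver with adrenal and adipocyte RNA, held 9 of the 23 reads of Tet1 and both reads of Dnmt3l. The part of the adrenal and adipocyte RNA in these reads was not tested.

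Tet2, which is often mutated in human blood cancers (chromosome 3, 133463677 to 133545136, minus strand), varied most of the 6 tested members among the A2M livers (coefficient of variation 37.4%). Its RPKM was 1.14, 0.948, 0.508, 0.874 and 0.586 in the PBS livers. In the A2M livers it was 0.958, 0.689, 0.63, 0.36, 0.375 and 0.556. Values were on average lower with A2M, 0.595 ± 0.222 (SD, n = 6) against 0.811 ± 0.261 (SD, n = 5), yet the groups overlapped widely. The log2 fold change was -0.42, with an interval from -0.99 to 0.15 (adjusted p = 0.502, edgeR), so that neither no change nor a 1.99-fold decrease lay outside it. In A2M replicate 1, the liver with the most Kupffer and lymphocyte marker RNA, Tet2 was at its A2M maximum. A2M replicate 6, with the next highest sums of both (73.5 and 4.36), had Tet2 at 0.556 RPKM. The part of those cells was not tested.

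Tet3, the main Tet enzyme of the oocyte (chromosome 6, 83362373 to 83457208, minus strand), had an RPKM of 1.62, 1.55, 1.04, 1.09 and 1.33 in the PBS livers. In the A2M livers it was 1.07, 1.28, 1.61, 1.2, 1.05 and 1.36. The ranges nearly coincided. The log2 fold change of -0.045 had an interval from -0.32 to 0.23, and it was 0.02 without PBS replicate 1. Tet2 made up 30.5 to 44.6% of the summed Tet RPKM in PBS livers and 23.0 to 47.0% in A2M livers.

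The order of the members by level within a liver compares genes and not groups, and it was tested. Pairs that hold Dnmt3b are not free of the treatment contrast, since its low values in A2M livers enter them and led to its selection. Mean RPKM over the 11 livers was 1.5 for Dnmt1, 1.47 for Dnmt3a, 1.29 for Tet3, 0.693 for Tet2, 0.63 for Dnmt3b, 0.134 for Uhrf1, 0.00434 for Tet1 and 0.00175 for Dnmt3l. The median over all genes tested was 4.11, so even Dnmt1 exceeded just 30.2% of them. Neighbours in this order were compared within each liver on the log2(RPKM + 0.01) scale by a two-sided exact sign-flip permutation test, adjusted over the 7 pairs, at a threshold of 0.05. The smallest p this design allows is 0.000977.

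Dnmt3a exceeded Tet3 in 11 of 11 livers by 0.19 ± 0.0877 (SD, adjusted p = 0.00171, exact permutation). Tet3 exceeded Tet2 in 11 of 11 livers by 0.96 ± 0.495, Dnmt3b exceeded Uhrf1 by 1.92 ± 1.31 and Uhrf1 exceeded Tet1 by 3.3 ± 0.687, each with that same adjusted p. RPKM divides each gene by 1 exon length shared by all livers, and these p-values do not cover an error in it. The lengths were 9947 bases for Dnmt3a and 10906 for Tet3. In raw reads Tet3 was the higher of that pair in PBS replicate 4 (549 against 514), A2M replicate 3 (657 against 634) and A2M replicate 4 (373 against 369). The size of the Uhrf1 and Tet1 difference was largely set by the pseudocount, and was 1.14 with a pseudocount of 0.1. Tet1 lay below 0.01 RPKM in every liver but PBS replicate 2, where it was 0.0164. Tet1 minus Dnmt3l was 0.31 ± 0.342, above 0 in 7 of 11 livers (adjusted p = 0.0219, exact permutation). With a pseudocount of 0.1 the adjusted p of this comparison of few reads was 0.0547 in that test. Livers with 0 reads of Dnmt3l allow up to 0.0242 to 0.0477 RPKM of it (3 reads), above every Tet1 value. In PBS replicate 2, the only liver with Dnmt3l reads, Dnmt3l was the higher (0.0192 against 0.0164 RPKM). The order of this pair is therefore not resolved. Dnmt1 and Dnmt3a did not differ beyond their spread (0.04 ± 0.23, higher in 6 of 11 livers, adjusted p = 0.608, exact permutation), nor did Tet2 and Dnmt3b (0.37 ± 0.787, 7 of 11 livers, adjusted p = 0.183). The place of Dnmt3b differed with the group, which its selection on the contrast implies. Tet2 minus Dnmt3b was -0.29 on average in the PBS livers alone and 0.91 in the A2M livers alone. Dnmt3b minus Uhrf1 was 3.27 in the PBS livers alone and 0.80 in the A2M livers alone, so its pooled value of 1.92 stands for neither group.

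**Figure D4:**
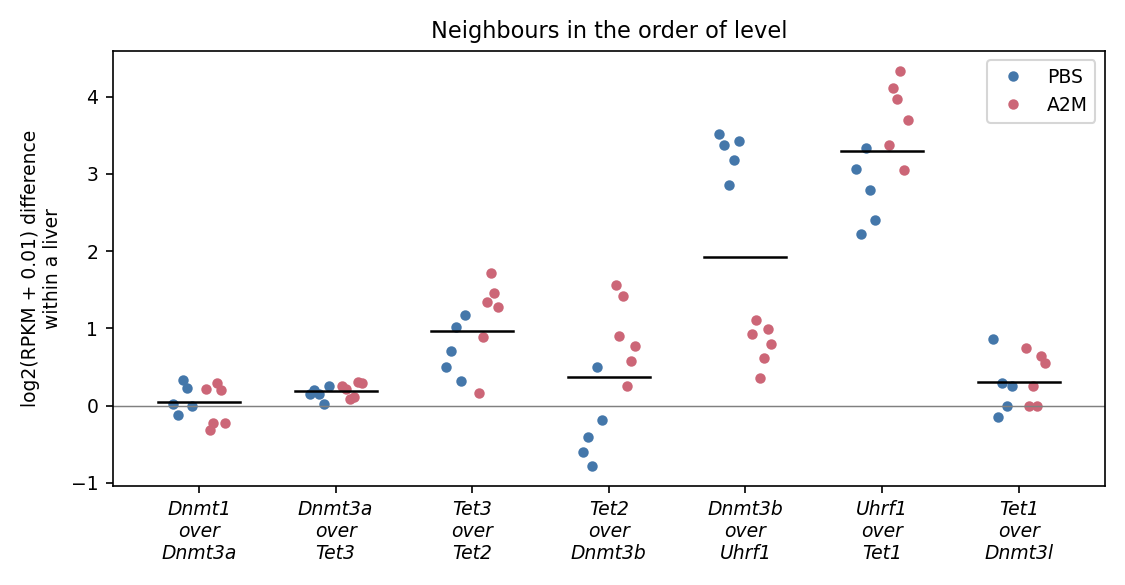
Difference in log2(RPKM + 0.01) between neighbours in the order of mean level, 1 point per liver, PBS in blue and A2M in red, with the mean over 11 livers as a black line. Points for Dnmt3a over Tet3 are above 0 in all 11 livers, while those for Tet2 over Dnmt3b are above 0 in 7.

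After each group's mean was removed, Dnmt3a and Tet3 varied together across the livers (Pearson 0.91, Spearman 0.9, n = 11; Pearson 0.9 without the 2 farthest livers). Dnmt3b and Uhrf1 had a Pearson correlation of 0.78 (Spearman 0.63), which was 0.58 without the 2 farthest livers. For Dnmt3a and Dnmt3b it was 0.39. These points share library, depth and normalization, and are given as a description. The genes whose pattern was most like that of Dnmt3b over the 11 livers, by the same measure, were Atf4 (0.93), a transcription factor of the stress response, Blcap (0.9), Rccd1 (0.88), Crtc3 (0.88), a coactivator of CREB, and Tbc1d10b (0.87). Their own log2 fold changes ran from -0.67 for Blcap to 0.08 for Tbc1d10b, and none passed the threshold. Without the 2 farthest livers the 5 correlations were, in that order, 0.87, 0.77, 0.88, 0.74 and 0.73. These genes were picked as the highest of all tested genes with a mean CPM of at least 1, so their correlations are raised by that selection. Dnmt3b itself varied more among the PBS livers (coefficient of variation 45.3%) than among the A2M livers (16.9%).

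The genes around the methylation cycle were counted list by list, beside a median log2 fold change of -0.01 and the 0.215% called over all genes. At an unadjusted p under 0.05, 6.38% of all genes tested were higher (803 genes) and 8.32% lower (1047 genes), so counts of a few such genes in a list of 10 to 20 are read against that share and are no result about the list. DESeq2 called 2.3% of the 12368 genes to which it gave an adjusted p.

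The methionine and S-adenosylmethionine cycle supplies the methyl donor, and only single genes of it are given. Mtrr, which reactivates methionine synthase, was at 0.55 on the log2 scale (adjusted p = 0.0711, edgeR), and DESeq2 alone called it (adjusted p = 0.00652). Ahcy, which hydrolyses S-adenosylhomocysteine, had 0.43, and Mat1a, the liver's S-adenosylmethionine synthetase, had 0.47. Neither of these passed the threshold.

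Among the methyl-CpG readers, 0 of 11 genes were called by edgeR, 6 were positive and 5 negative, and the median was 0.04. At an unadjusted p under 0.05 there were 0 higher and 3 lower, Mbd2 (-0.26), Mbd6 (-0.4) and Zbtb4 (-0.31), which all bind methylated DNA or belong to that protein family, and DESeq2 also called 0. For excision of oxidised methylcytosine, 0 of 12 tested genes were called by edgeR or DESeq2, with a median of -0.05. At an unadjusted p under 0.05, 3 were higher, Gadd45a (0.73), the nuclease Apex1 (0.31) and the glycosylase Smug1 (0.31), and 1 was lower, the repair scaffold Xrcc1 (-0.3). Tdg, the glycosylase for oxidised methylcytosine, had 14 reads in all.

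Partners and recruiters of the methyltransferases had 16 of 19 genes tested and 0 called by edgeR or DESeq2, with 6 positive, 10 negative and a median of -0.03. At an unadjusted p under 0.05, 2 were higher, Cdca7 (0.88), a partner of the remodeller Hells, and the replication clamp Pcna (0.23), and 0 lower. Tet partners and the supply of 2-oxoglutarate had 10 of 14 genes tested, 0 called by edgeR and a median of 0.04. At an unadjusted p under 0.05, 2 were higher, Idh2 (0.33) and Sdha (0.28), mitochondrial enzymes of the citric acid cycle, and 1 lower. The latter was Ogt, the O-GlcNAc transferase that binds Tet proteins, with -0.58 (adjusted p = 0.0663, edgeR), and DESeq2 called it (adjusted p = 0.00797).

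The S phase list had 19 of 20 genes tested and 0 called by edgeR or DESeq2, with 13 positive, 6 negative and a median of 0.23. At an unadjusted p under 0.05, 3 were higher, E2f1 (0.66), the helicase subunit Mcm2 (0.61) and the polymerase subunit Pola1 (0.36), and 1 lower, Mcm7 (-0.24).

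**Figure D5:**
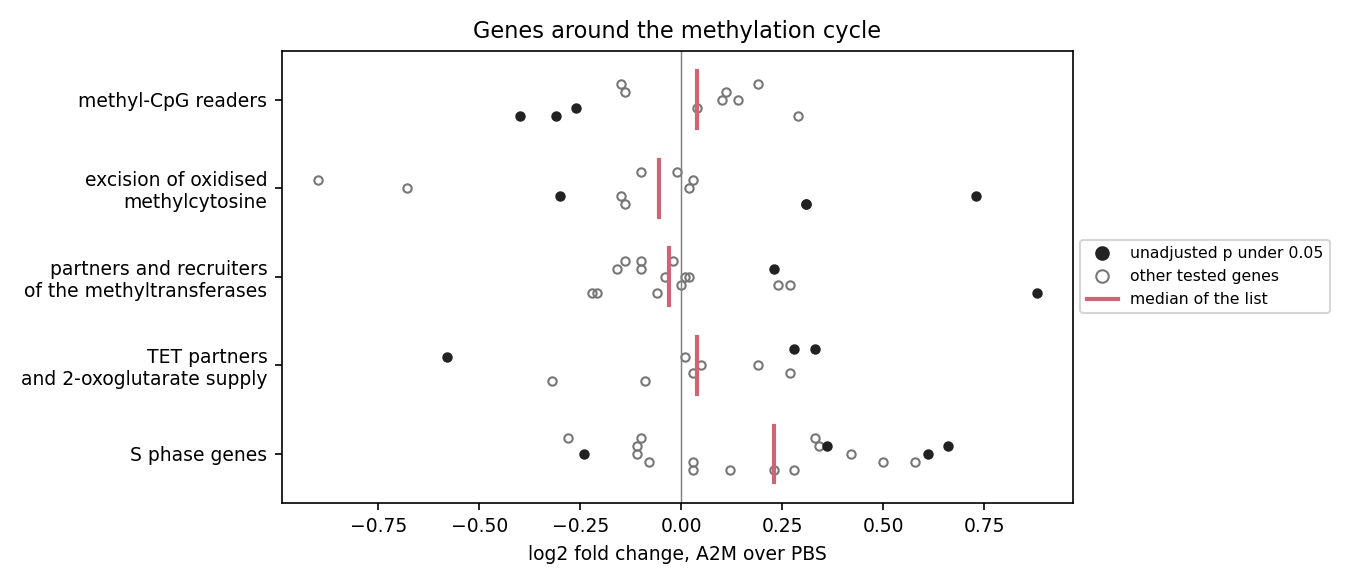
Log2 fold change, A2M over PBS, of each tested gene in 5 lists around the methylation cycle. Filled points have an unadjusted p under 0.05 and red bars are list medians. The medians lie between -0.05 and 0.23.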

How the data were processed

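Liver RNA of 11 mice (5 PBS, 6 A2M) was analysed. According to the methods of the study and the submitters' processing notes, unstranded TruSeq RNA v2 libraries were sequenced as single reads, extracted with bcl2fastq 1.8.4, mapped with TopHat2 to mm10, and assigned to RefSeq genes with featureCounts. Raw read counts were deposited by the authors, with RPM values (counts scaled to an equal library total, which matched the deposited counts within a relative tolerance of 1e-06) and RPKM values made by the authors with the featureCounts exon lengths. Reads that fit overlapping genes on opposite strands cannot be separated.

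Counts were tested with edgeR 4.0.16 in R 4.3.3 (TMM, filterByExpr by group, quasi-likelihood F-test, Benjamini-Hochberg over 12581 genes, the study's cutoff of 0.01 on the adjusted p). The scripts were tested on simulated data. Standard errors are the log2 fold change over the square root of F. Levels are RPKM as mean ± SD, with 95% exact Poisson intervals and a floor of 3 reads that cover counting error only. The order of levels was tested with an exact sign-flip permutation test. Correlations used log2 CPM (prior count 2) with group means removed. Python 3.11.15 was used for tables and matplotlib 3.10.9 for figures.

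Groups came from the treatment labels, and replicate numbers follow the order of deposit. All libraries differed by more than sampling noise (smallest chi-square per degree of freedom 37.1), and p-values measure the spread between these livers. Named genes were the 8 members, up to 4 genes of each list with the smallest p, and the 5 genes (mean CPM of at least 1) with the highest correlation to Dnmt3b. The members and lists were chosen with earlier results of these data known. A gene of the methionine list, and with it that list's counts and median, is not reported here. Tdg, the single cholangiocyte markers and the genes at the threshold were named after their values were seen. Oga and Adgre1 were matched under the older symbols Mgea5 and Emr1. The alternatives tried were scaling by RLE or by library totals, testing without the low-count filter, a robust dispersion fit, DESeq2 1.42.0, an edgeR exact test together with DESeq2, an adjusted p under 0.05, the clock score (mean z of the dusk list minus that of the dawn list) as a covariate, each liver left out, a pseudocount of 0.1, and each group alone. Sequences and positions are from RefSeq on GRCm38.p6, exon overlaps from GENCODE on GRCm38.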

Additional observations from a re-analysis of the deposited data

Results flagged for a closer look

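Dnmt3l was at 0.0192 RPKM in PBS replicate 2 and at 0 in the other 4 PBS livers, so that this liver's gap to the rest was the whole range of its group. The value rests on 2 reads. Of 15 groups of livers examined in this way 1 stood out. The rule is set so that chance sets apart about 1 in 20 groups, but that rate does not apply here. With reads in only 1 liver of a group, the gap is always the whole range.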

How the results depend on the processing

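No paired analysis was possible because the replicate numbers follow the order of deposit and pair no livers. Depth limited Uhrf1, Tet1 and Dnmt3l most. Dnmt3b was lower in A2M livers under every alternative run. It was called by DESeq2 (adjusted p = 8.72e-08) and by the edgeR exact test together with DESeq2 (larger adjusted p = 6.83e-07). On library totals it missed the threshold (-1.79, adjusted p = 0.0105, edgeR), with 0 members called. With the clock score as a covariate it was at -0.67, with 0 members and 0 genes called. Under that covariate Dnmt1 was at 0.028, Dnmt3a at 0.17 and Tet3 at 0.084, all with reversed sign, and the medians of the readers and the excision list were -0.081 and 0.14. Dnmt3a also turned to 0.0025 with RLE size factors and 0.0073 in DESeq2. With 1 liver left out, Dnmt3b ran from -1.87 to -1.50, Dnmt3a from -0.068 to 0.057, Tet3 from -0.11 to 0.02, the members called from 0 to 1 and the genes called from 6 to 35. DESeq2 called 284 genes (138 higher, 146 lower), the edgeR exact test with DESeq2 188 (83 higher, 105 lower), and an adjusted p under 0.05 gave 154 (70 higher, 84 lower), against 27. DESeq2 called 1 gene of the Tet partner list. Within a liver, Tet1 over Dnmt3l was 0.037 with a pseudocount of 0.1 and 0.37 in A2M livers only, Dnmt3b over Uhrf1 was 3.27 in PBS livers only, and in A2M livers only Tet2 over Dnmt3b was 0.91, in livers whose low Dnmt3b had led to its selection, while Dnmt1 over Dnmt3a was -0.0078. Of the 5 genes most like Dnmt3b, 3 were kept with Spearman correlation. The cause of these shifts was not tested.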
